A study of Rattus norvegicus with 40 samples.

Results

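The vascular endothelial growth factor (VEGF) system was followed through 7 genes in rat cerebral cortex: the ligands Vegfa, Vegfb and Vegfc, the receptor tyrosine kinases Flt1 (VEGF receptor 1) and Kdr (VEGF receptor 2), and the co-receptors Nrp1 and Nrp2. The members were chosen by gene symbol, as every probe set that the platform annotation assigns to a single one of these genes. They are 7 of the 14217 genes that have such a probe set on the array, and they hold 13 probe sets: 2 for Vegfa, 1 each for Vegfb and Vegfc, 3 for Flt1 and 2 each for Kdr, Nrp1 and Nrp2. All 13 matched a RefSeq gene ID under the same symbol. Of the 13 probe sets, 10 passed the filter on dim signal and cover all 7 genes. The other 3, 1 each for Flt1, Kdr and Nrp2, are described by their levels.

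Total RNA from cerebral cortex was hybridised to 40 Affymetrix arrays, 20 labelled as hypoxic preconditioning and 20 as sham, the latter kept in normal oxygen. Hypoxic preconditioning is a mild exposure to low oxygen that is used to make the brain more tolerant of a later insult. Each group carries the sample numbers 1 to 20, in alternating blocks of 5, so that the numbers fall into 4 runs with 5 arrays per group in each. The sources used here do not give what distinguishes the runs, the age and strain of the rats, the oxygen level or the length of the exposure. They do not state that each sample is a separate animal either, so p-values cover the spread among the samples alone, some of which may be technical.

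VEGF-A is secreted by astrocytes, neurons and other cells and drives the growth and permeability of blood vessels. Its gene is a classical target of the hypoxia-inducible factors (HIF), transcription factors whose alpha subunits are destroyed when oxygen is plentiful. In the brain, Kdr is found mainly on endothelial cells and carries most of the growth signal, while Flt1 binds VEGF-A tightly, signals weakly and, as a soluble splice form, acts as a decoy. VEGF-B binds Flt1, VEGF-C binds the lymphatic receptor Flt4 and also Kdr, and the neuropilins Nrp1 and Nrp2 serve both VEGF and the semaphorins that guide axons.

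The promoters of the 3 genes that rose and of the 1 that fell are shown first, because these are the members whose RNA differed between the groups. They are the 250 bases before the RefSeq transcription start (assembly GRCr8), written 5' to 3' on the strand of the gene. The promoters shown for Vegfa (chr9:22452604-22452853, plus strand), Flt1 (chr12:12333180-12333429, plus strand), Kdr (chr14:32571813-32572062, plus strand) and Vegfc (chr16:44560888-44561137, minus strand) were searched on both strands. Capitals mark the core of a HIF binding site (ACGTG or GCGTG), the cAMP response element TGACGTCA, the GC box GGGCGG or the AP-1 motif TGANTCA, and a match on the other strand appears as its complement. RefSeq gives a second start for Vegfa, whose window (chr9:22460028-22460277) held none of these motifs and is not printed.
Vegfa: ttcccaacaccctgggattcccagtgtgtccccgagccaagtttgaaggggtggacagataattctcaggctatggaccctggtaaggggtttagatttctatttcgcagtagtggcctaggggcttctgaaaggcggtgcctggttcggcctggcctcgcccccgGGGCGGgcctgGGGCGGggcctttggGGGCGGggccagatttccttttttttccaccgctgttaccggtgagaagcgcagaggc
Flt1: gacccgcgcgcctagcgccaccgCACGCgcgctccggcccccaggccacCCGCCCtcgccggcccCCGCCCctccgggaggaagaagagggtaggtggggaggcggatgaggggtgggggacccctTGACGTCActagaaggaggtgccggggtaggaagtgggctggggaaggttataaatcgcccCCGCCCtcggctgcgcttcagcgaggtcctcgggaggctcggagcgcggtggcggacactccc
Kdr: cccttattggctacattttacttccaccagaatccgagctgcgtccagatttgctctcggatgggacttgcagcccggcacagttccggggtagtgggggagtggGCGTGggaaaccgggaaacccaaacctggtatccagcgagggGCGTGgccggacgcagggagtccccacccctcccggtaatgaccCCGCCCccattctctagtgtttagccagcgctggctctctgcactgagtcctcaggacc
Vegfc: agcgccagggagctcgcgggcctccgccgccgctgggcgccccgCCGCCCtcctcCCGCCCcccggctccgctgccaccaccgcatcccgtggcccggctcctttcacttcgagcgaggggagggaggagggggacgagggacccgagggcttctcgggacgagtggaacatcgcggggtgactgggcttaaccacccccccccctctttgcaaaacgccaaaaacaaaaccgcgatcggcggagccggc

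In the windows shown, Vegfa held 3 GC boxes and no HIF core. The best described hypoxia response element of Vegfa lies further upstream than this window. Flt1 held 1 HIF core and 3 GC boxes, with a cAMP response element that begins 124 bases before the start. The HIF core and the cAMP response element do not overlap there, although TGACGTCA shares the letters ACGT with the HIF core motif. Kdr held 2 HIF cores and 1 GC box, and Vegfc held 2 GC boxes and no HIF core. Nrp1, Nrp2 and Vegfb, whose RNA was not called different in any run, each held 1 HIF core. Among 33469 rat promoter windows of the same length, 36.7% held a HIF core, 1.59% the cAMP response element, 30.5% a GC box and 6.34% the AP-1 motif. A match is a description of the letters and not a binding site.

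The arrays were alike in overall signal. Their medians on the log2 scale lay between 5.71 and 5.82, except preconditioned arrays 5 and 6 at 5.59 and 5.53. RNA integrity, read as the 3' over 5' signal of control transcripts, gave 1.38 to 1.9 with actin and 0.892 to 1.06 with GAPDH, with overlapping ranges of the groups in every run. Cortical neuron markers were present in all groups. No list marker that passed the filter, which removes dim probe sets, was at the floor on any array. The summed signal of 2 choroid plexus markers fell as low as 108 on 1 sham array of numbers 6 to 10, against 2900 or more in every other group. In bulk tissue, fewer cells of a type and less RNA per cell cannot be told apart.

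In numbers 1 to 5, Vegfa, Flt1 and Kdr were higher and Vegfc was lower after preconditioning. In numbers 6 to 10 Vegfa and Kdr were higher, and Flt1 was higher by its dimmer kept probe set alone. In numbers 11 to 15 and 16 to 20 no member was called. A probe set was called when its adjusted p, from limma with Benjamini-Hochberg adjustment over all 18625 probe sets kept, was under 0.05. The numbers 1 to 5 gave 6 called of the 10 member probe sets, against 2.39% of all probe sets. The numbers 6 to 10 gave 4 called, all higher, against 2.22%. Both counts include Flt1 1370492_a_at, which passed the filter only through preconditioned arrays of these runs, so its calls support nothing about the members as a set. The members were also chosen with earlier results of these data known. Every count of members set beside all probe sets is therefore a description and not a test of the set. There were 0 called in numbers 11 to 15, where 2, both of Vegfa, had an unadjusted limma p under 0.05 and 0.0698% of all probe sets were called. In numbers 16 to 20 there were 0 called and 0 at an unadjusted p under 0.05, and 0% of all probe sets were called. These comparisons use different arrays, while values of a gene across runs come from 1 fit with a shared estimate of the spread.

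**Figure D1:**
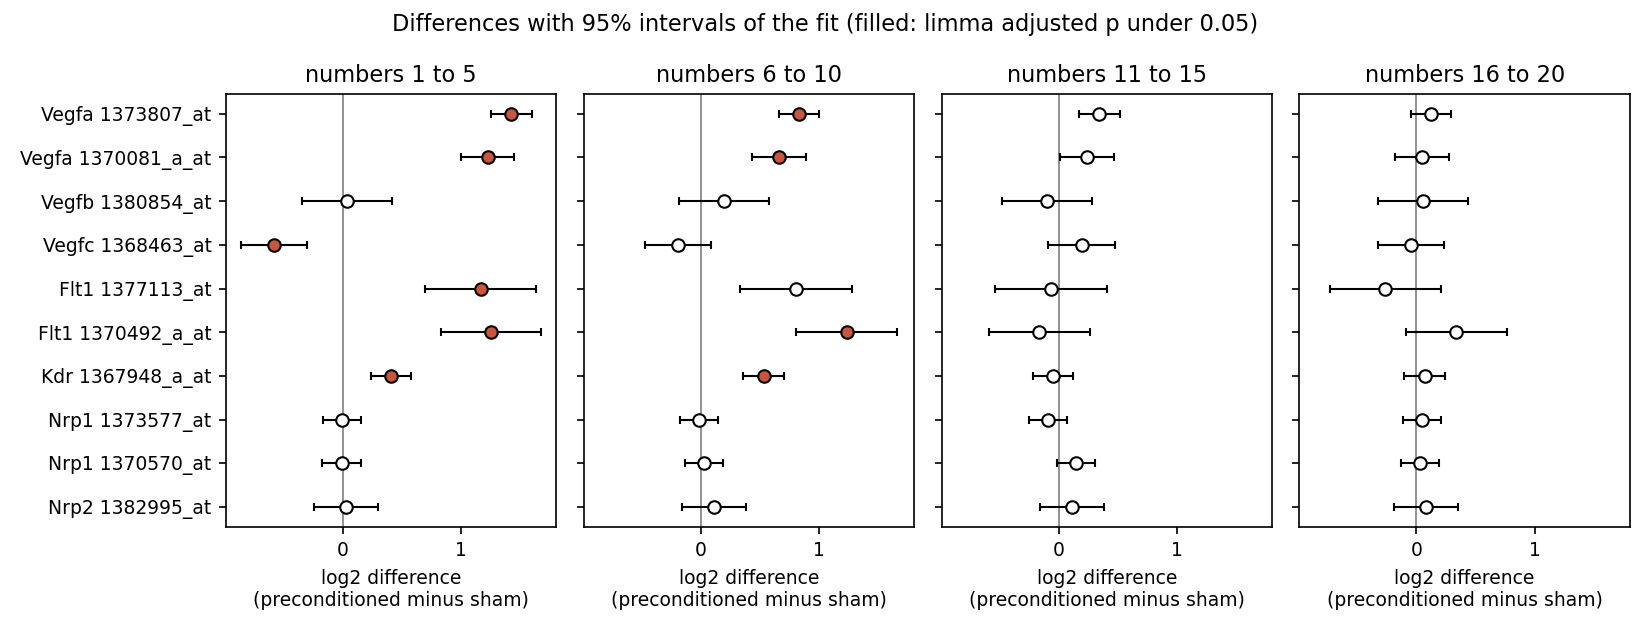
Difference between preconditioned and sham arrays for each kept member probe set (rows) in each run of sample numbers (panels), on the log2 scale of the intensity (horizontal axis), with the 95% interval of the limma fit and 5 arrays per group. Filled points passed the adjusted threshold: both Vegfa, both Flt1, Kdr and Vegfc in numbers 1 to 5, then both Vegfa, 1 Flt1 and Kdr in numbers 6 to 10.

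Vegfa, the main growth signal for vessels, rose most clearly in numbers 1 to 5. On preconditioned arrays 1 to 5, the intensities of Vegfa probe set 1373807_at were 556, 535, 599, 548 and 450. On sham arrays 1 to 5 they were 201, 211, 175, 230 and 185. Every preconditioned array lay above every sham array, with the lowest preconditioned value far from the highest sham value. The log2 difference was 1.42 ± 0.08 (SE, n = 5 per group, limma adjusted p = 4e-16), a 2.68-fold higher signal. The second probe set, 1370081_a_at, read 284, 293, 331, 307 and 249 on the preconditioned arrays and 118, 124, 147, 125 and 112 on the sham arrays. Its groups did not overlap either, and its log2 difference was 1.22 ± 0.11 (adjusted p = 3.24e-10). Groups of 5 arrays that do not overlap occurred for 4.28% of all probe sets in this run, and for 6 of the 10 member probe sets.

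Vegfa was higher again in numbers 6 to 10, by a smaller amount. Probe set 1373807_at read 372, 355, 380, 374 and 404 on preconditioned arrays 6 to 10 and 220, 196, 244, 213 and 192 on the sham arrays. The lowest preconditioned value, 355, lay above the highest sham value, 244. The log2 difference was 0.83 ± 0.08 (adjusted p = 1.32e-08), or 1.78-fold. For 1370081_a_at the values were 218, 183, 227, 234 and 268 against 168, 153, 132, 126 and 135, a log2 difference of 0.66 ± 0.11 (adjusted p = 0.000335). In this run 3.66% of all probe sets had groups that did not overlap, and 4 of the 10 member probe sets did.

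Later runs held smaller Vegfa differences. On preconditioned arrays 11 to 15 probe set 1373807_at read 246, 268, 300, 272 and 240, and on sham arrays 192, 208, 224, 227 and 193. All 5 preconditioned values exceeded all 5 sham values, as happened for 2.21% of probe sets in this run, and this was the only member probe set to do so. The log2 difference was 0.35 (95% interval 0.17 to 0.52) and its limma adjusted p of 0.108 missed the threshold. It passed with the sample number as a replicate block (limma adjusted p = 0.0382). No label states that the numbers pair samples. In deviations from group means, however, 19 of 20 preconditioned and 17 of 20 sham arrays correlated best with their own number in the run. Which of the 2 fits is the right one is thus not settled. In numbers 16 to 20 the groups overlapped, at 210, 246, 264, 246 and 218 against 204, 241, 232, 224 and 187, and the log2 difference was 0.12 (95% interval -0.05 to 0.29, adjusted p = 0.927). Probe set 1370081_a_at differed by 0.24 in numbers 11 to 15 (95% interval 0.01 to 0.47, limma adjusted p = 0.478), with overlapping groups. In 16 to 20 it differed by 0.05 (95% interval -0.18 to 0.28, limma adjusted p = 0.988).

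**Figure D2:**
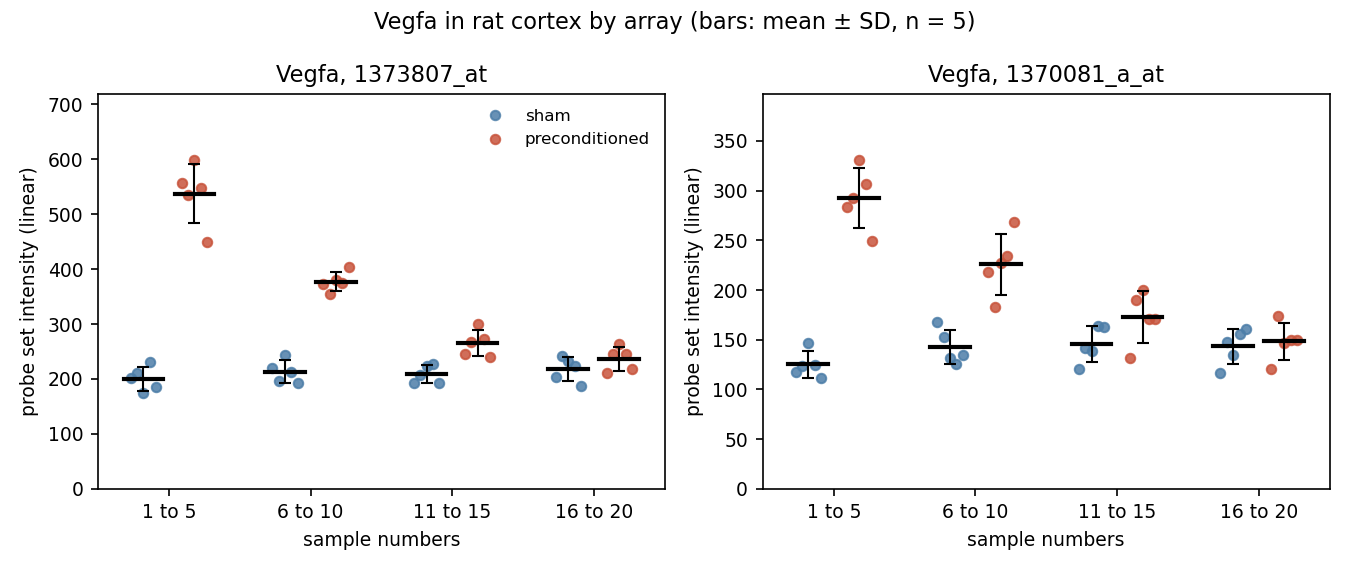
Intensity of both Vegfa probe sets (vertical axis, linear, from 0) on each array, by run of sample numbers (horizontal axis), with sham in blue and preconditioned in red; each point is 1 array and bars give the mean ± SD of 5. For 1373807_at the preconditioned mean is 537, 377, 265 and 237 in the runs from left to right, while sham means lie between 200 and 217.

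The Vegfa effect differed between the runs, with an adjusted interaction p of 1.02e-09 for 1373807_at and 2.29e-05 for 1370081_a_at (limma F-test). Of the 10 member probe sets 5 passed this test, against 0.762% of all. They include Flt1 1370492_a_at, which was kept only through preconditioned arrays. Taken step by step, the effect of 1373807_at in numbers 1 to 5 exceeded that in 6 to 10 by 0.59 ± 0.12 (adjusted p = 0.0262), as the 1 member probe set called, against 0.0537% of all. Its excess in 6 to 10 over 11 to 15, 0.48 ± 0.12, had an adjusted p of 0.061 and did not pass. The corresponding steps of 1370081_a_at were 0.56 ± 0.16 and 0.42 ± 0.16, with adjusted p of 0.343 and 0.323. Over all 40 arrays without regard to run, Vegfa rose by 0.68 ± 0.11 and 0.54 ± 0.10 in its probe sets (adjusted p = 0.000265 and 0.00205). Of the 10 member probe sets 3 were called over all arrays, against 0.891% of all, and these too include Flt1 1370492_a_at.

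Among preconditioned arrays alone, the Vegfa level of 1373807_at was ordered 537 ± 54.7, 377 ± 17.8, 265 ± 24 and 237 ± 22.3 (mean intensity ± SD, n = 5) from the first run to the last. Numbers 6 to 10 were lower than 1 to 5 by a log2 difference of -0.51 ± 0.08 (adjusted p = 0.000301), where 2 member probe sets, both of Vegfa, were called against 3.98% of all. Numbers 11 to 15 were lower than 6 to 10 by -0.51 ± 0.08 (adjusted p = 0.000125). The last 2 neighbours, 265 and 237, did not pass (-0.17, 95% interval -0.34 to 0.01, adjusted p = 0.402). Sham means of the same probe set were 200 ± 21.7, 213 ± 20.7, 209 ± 16.7 and 217 ± 21.8, and their differences across runs did not pass the F-test (adjusted p = 0.716).

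Astrocytes, a source of VEGF-A, were followed through 9 markers. In numbers 1 to 5, 0 of the 9 were called and their summed intensity was 7097 to 8261 on preconditioned and 6901 to 7560 on sham arrays. In numbers 6 to 10 and 11 to 15 the intermediate filament gene Gfap alone was called, at 1.02 ± 0.19 and 1.07 ± 0.19 (limma adjusted p = 0.000902 and 0.00509). The summed intensity of the 9 was 8419 to 12458 on preconditioned and 7521 to 10079 on sham arrays 6 to 10, and 7898 to 9690 against 8041 to 9412 in numbers 11 to 15. In 11 to 15 Gfap was called and Vegfa was not, although Vegfa 1373807_at was higher there by 0.345 with separate groups (limma adjusted p = 0.108). Gfap was also higher in numbers 1 to 5, at 0.53 ± 0.19, but was not called (limma adjusted p = 0.12). The difference of the Gfap effect between runs missed the threshold (limma F-test, adjusted p = 0.0787). Whether Gfap and Vegfa differ in their pattern over the runs was not tested, nor was the part of astrocytes in the Vegfa difference. Of 10 neuron markers 0 were called in any of the 4 runs.

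The other ligands did not follow Vegfa. Vegfc, a ligand of lymphatic and vascular receptors, fell in numbers 1 to 5. Its probe set 1368463_at read 51.5, 44.9, 42.2, 54.3 and 53.6 on preconditioned arrays and 61.3, 63.5, 86.4, 79.9 and 79.4 on sham arrays. All 5 preconditioned arrays lay below all 5 sham arrays. The log2 difference was -0.58 ± 0.14 (adjusted p = 0.0139), and 1.15% of all probe sets were called lower in this run. The call was lost without sham array 3 (adjusted p = 0.0556) and in a fit of that run's 10 arrays alone (0.0641).

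In the 3 later runs the Vegfc groups overlapped. Numbers 6 to 10 read 53, 69.9, 82.7, 59.2 and 44.1 against 52.5, 79.8, 75.9, 79.1 and 62, a log2 difference of -0.19 (95% interval -0.47 to 0.09). Numbers 11 to 15 gave 0.20 (95% interval -0.09 to 0.47) and numbers 16 to 20 gave -0.05 (95% interval -0.33 to 0.23). The difference of the Vegfc effect between runs missed the threshold (adjusted interaction p = 0.141). Among preconditioned arrays the Vegfc level did differ across runs (F-test, adjusted p = 0.00273), with 6 member probe sets called against 22.8% of all. Its mean went from 49.3 ± 5.42 in numbers 1 to 5 through 61.8 ± 15 and 77 ± 8.46 to 71.6 ± 4.54, while no neighbouring pair in this order of runs passed. Numbers 16 to 20 were higher than 1 to 5 by 0.54 ± 0.14 (adjusted p = 0.00508), as 1 of 6 member probe sets called, against 17.6% of all.

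Vegfb, a ligand of Flt1, was called in no run. Its probe set 1380854_at read 136, 155, 142, 147 and 136 on preconditioned arrays 1 to 5 and 136, 155, 114, 151 and 149 on sham arrays. The groups overlapped fully, with a log2 difference of 0.03 (95% interval -0.35 to 0.41). The intervals were -0.18 to 0.58 in numbers 6 to 10, -0.48 to 0.28 in 11 to 15 and -0.32 to 0.43 in 16 to 20. Sham arrays 16 to 20 were spread widely, at 59.6, 201, 178, 110 and 194, and leaving out sham array 16 or sham array 19 turned the sign of the last difference.

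The ligands were compared with each other array by array, as the log2 ratio of their probe sets, with 32 exact two-sided permutation tests in the family and a smallest possible p of 0.00794. In a family of this size, tests at that smallest p pass on their own only where 6 or more of the 32 reach it, and 6 did. The Vegfa change exceeded the Vegfb change by 1.39 in numbers 1 to 5 and by 0.63 in numbers 6 to 10. It exceeded the Vegfc change by 2.01 and 1.02 in the same runs. Each of these 4 differences had an exact p of 0.00794, adjusted 0.0423, with no overlap of the ratios between groups. In numbers 11 to 15 the excess over Vegfb was 0.45 (exact permutation p = 0.0794, adjusted 0.195) and that over Vegfc was 0.15 (exact permutation p = 0.31, adjusted 0.584). In numbers 16 to 20 the excesses were 0.07 and 0.17, with adjusted exact p of 0.946 and 0.309.

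Of the kinase receptors, Kdr rose in the same runs as Vegfa, and Flt1 did so in 1 of its 2 kept probe sets. Flt1, the tight-binding receptor and decoy, had 2 kept probe sets. Probe set 1370492_a_at read 67.1, 52.1, 76.8, 75.8 and 70.8 on preconditioned arrays 1 to 5 and 27.7, 39.3, 26.2, 20.8 and 31.9 on sham arrays. The groups did not overlap, and the log2 difference was 1.25 ± 0.21 (adjusted p = 0.000229). Over arrays 6 to 10 it read 53.1, 56.1, 59.3, 70.1 and 67.6 against 30.5, 27.7, 27, 18.7 and 27.1. Again every preconditioned array was above every sham array, with a log2 difference of 1.23 ± 0.21 (adjusted p = 0.000358). This probe set is dim: its sham means were 29.2, 26.2, 34.9 and 30.3 in the 4 runs, and it passed the filter on mean signal (31.9) through the preconditioned arrays of the first 2 runs, where its means were 68.5 and 61.2. It therefore had to differ in order to be kept. Its place among the member probe sets counted as called, or as not overlapping, supports nothing about the set. In a fit without the filter it was called in both runs.

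Beyond these runs the Flt1 groups overlapped. In numbers 11 to 15 the values of 1370492_a_at were 12.5, 46.2, 39.7, 28.4 and 33.5 against 31.1, 43.9, 33.2, 37 and 29.5, where the preconditioned value of 12.5 was below the floor of 16. The log2 difference was -0.17 (95% interval -0.59 to 0.26), and it was 0.07 without that array. In numbers 16 to 20 the difference was 0.34 (95% interval -0.09 to 0.77). The effect differed between runs (adjusted interaction p = 0.00669), and the step from 6 to 10 down to 11 to 15, 1.40 ± 0.30, was called (adjusted p = 0.0209), as 1 of 2 member probe sets against 0.279% of all. Over all 40 arrays the rise of 1370492_a_at was 0.67 ± 0.14 (adjusted p = 0.013).

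The Flt1 probe set 1377113_at was also higher in numbers 1 to 5, with more spread. It read 89.4, 58.8, 131, 101 and 86.3 on preconditioned arrays 1 to 5 and 35.9, 47.6, 49, 42.8 and 30 on sham arrays. The groups were separate, with a log2 difference of 1.16 ± 0.23 (adjusted p = 0.00244). In numbers 6 to 10 the values 61.9, 40.9, 89.4, 49.5 and 108 met 28.5, 31, 38.8, 47.8 and 45.2, and preconditioned array 7 fell within the sham range. The difference of 0.81 ± 0.23 had an adjusted p of 0.0543 and missed the threshold. In numbers 11 to 15 and 16 to 20 its differences were -0.06 (95% interval -0.54 to 0.41) and -0.26 (95% interval -0.73 to 0.21), the last opposite in sign to that of 1370492_a_at. The difference in 6 to 10 passed under quantile normalization and under median centring (0.029 in each), and with the sample number as a replicate block (0.0325). It also passed without preconditioned array 2, 7, 9 or 13 (as low as 0.0191, without array 7). Over all 40 arrays its difference of 0.41 ± 0.14 was not called (limma adjusted p = 0.154), and neither was the step from 6 to 10 down to 11 to 15, 0.87 ± 0.33 (adjusted p = 0.325). Its interaction was called at an adjusted p of 0.028, and the call was lost without the filter (0.0779) and in 8 of the 40 fits that left out 1 array, namely preconditioned 3, 4, 16 or 20 or sham 1, 5, 17 or 20 (up to 0.0584, without preconditioned array 3).

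The third Flt1 probe set, 1369087_at, was too dim to be kept, with intensities from 10.4 to 48.4. It read 38.4, 30.1, 38.7, 32 and 36.3 on preconditioned and 21.3, 29.8, 40.9, 30.2 and 21 on sham arrays 1 to 5, so that sham array 3 held the highest value. In a fit without the filter its differences in numbers 1 to 5 and 6 to 10 were 0.33 (95% interval -0.07 to 0.74) and 0.37 (95% interval -0.03 to 0.78), with adjusted p of 0.523 and 0.421. Which Flt1 splice forms the 3 probe sets read was not analysed here.

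Kdr, the main signalling receptor, rose in both runs with a small spread. Its probe set 1367948_a_at read 311, 304, 399, 367 and 388 on preconditioned arrays 1 to 5 and 293, 222, 284, 279 and 257 on sham arrays. The lowest preconditioned value, 304, stood just above the highest sham value, 293. The log2 difference was 0.40 ± 0.08 (adjusted p = 0.00412), and the call was lost in a fit of that run's 10 arrays alone (0.0595). For numbers 6 to 10 the values were 394, 317, 333, 357 and 365 against 243, 217, 241, 236 and 288, again separate. That difference was 0.53 ± 0.08 (adjusted p = 0.000177), or 1.44-fold.

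The later runs of Kdr lay close together. Numbers 11 to 15 read 282, 227, 227, 237 and 262 against 260, 231, 267, 257 and 257, a log2 difference of -0.05 (95% interval -0.22 to 0.12). Numbers 16 to 20 read 242, 239, 271, 266 and 275 against 253, 226, 260, 269 and 225, a difference of 0.07 (95% interval -0.10 to 0.24). The interaction was called (adjusted p = 0.00946), and so was the step from numbers 6 to 10 to 11 to 15, 0.58 ± 0.12 (adjusted p = 0.0152). The difference over all 40 arrays, 0.24 ± 0.07, missed the threshold (adjusted p = 0.058). It passed with the run as a covariate (0.0102), with the sample number as a replicate block (0.018) and with median centring (0.0396). It also passed in 8 fits that left out sham array 1 or 1 of preconditioned arrays 12 to 18 (as low as 0.0324). The other Kdr probe set, 1397868_at, was below the floor on all 40 arrays, at 0.661 to 15.8, and carries no measurement.

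**Figure D3:**
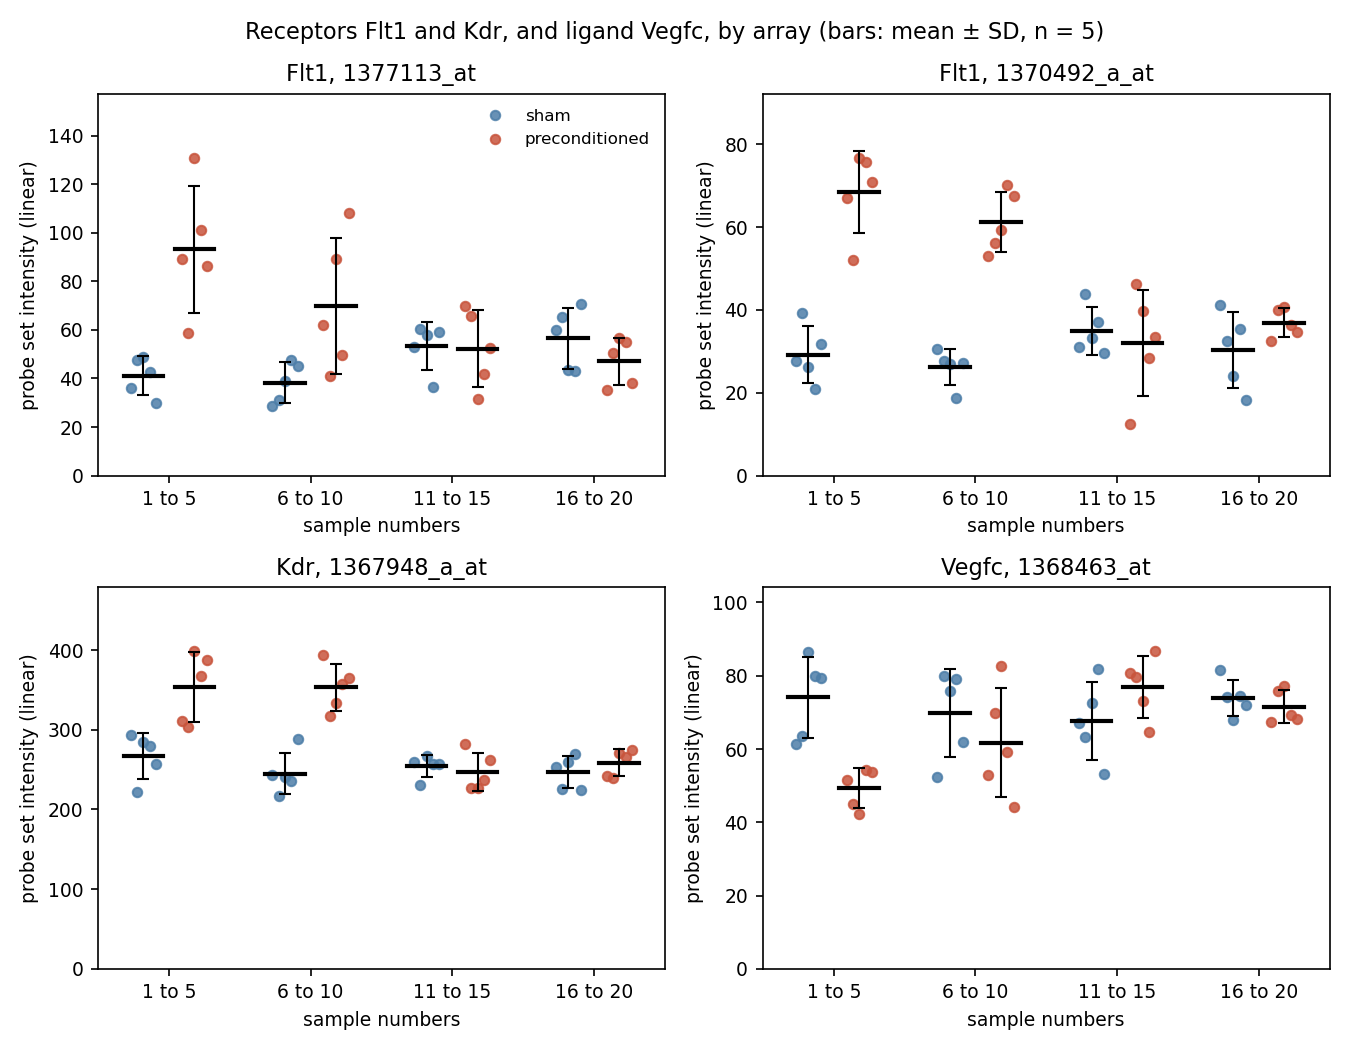
Intensity (vertical axes, linear, from 0) of the kept Flt1 and Kdr probe sets and of Vegfc on each array, by run of sample numbers (horizontal axes), with sham in blue and preconditioned in red; points are arrays and bars the mean ± SD of 5. The receptors are raised in numbers 1 to 5 and 6 to 10, with Kdr at 354 and 353 against 267 and 245, and Vegfc is lowered in numbers 1 to 5, at 49.3 against 74.1.

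On preconditioned arrays alone, the mean receptor levels of the first 2 runs lay above those of the last 2. Kdr averaged 354 ± 43.7, 353 ± 29.8, 247 ± 24.3 and 259 ± 16.9 over the 4 runs. The first 2 did not differ beyond their spread (0.00, 95% interval -0.17 to 0.17), and the drop to numbers 11 to 15 did (-0.52 ± 0.08, adjusted p = 0.000115). Its last step was 0.07 (95% interval -0.10 to 0.24) and was not called. Flt1 1370492_a_at averaged 68.5 ± 9.96, 61.2 ± 7.32, 32.1 ± 12.8 and 36.9 ± 3.49, with a first step of -0.16 (95% interval -0.58 to 0.27) a second of -0.98 ± 0.21 (adjusted p = 0.00262) and a last of 0.25 (95% interval -0.17 to 0.68), not called. Flt1 1377113_at averaged 93.5 ± 26.3, 69.9 ± 28, 52.3 ± 16 and 47.1 ± 9.78, where no neighbouring pair of runs passed. Its sham means were 41.1 ± 8.02, 38.3 ± 8.46, 53.3 ± 9.86 and 56.6 ± 12.6 (limma F-test, adjusted p = 0.174). From 6 to 10 to 11 to 15 its sham level changed by 0.48 ± 0.23 and its preconditioned level by -0.38 ± 0.23, neither called. Which group the change of its effect between runs lies in was not tested. At that second step 4 member probe sets were called lower, those of Vegfa, 1 of Flt1 and that of Kdr, against 3.78% of all. At the last step 0 member probe sets were called, 0 had an unadjusted limma p under 0.05, and 0.274% of all were called. Whether the steps differ between the receptors and Vegfa was not tested.

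Flt1 and Kdr sit on endothelial cells, so the receptors were set against 15 measured endothelial markers on the same arrays. In numbers 1 to 5, 2 of the 15 markers were higher, the adhesion molecule Pecam1 at 0.53 ± 0.14 and the clotting factor carrier Vwf at 0.49 ± 0.13 (limma adjusted p = 0.0307 and 0.028). In numbers 6 to 10, 1 was higher (Vwf, 0.54 ± 0.13) and 2 were lower, the drug efflux pump Abcb1a at -0.98 ± 0.26 and the angiopoietin receptor Tek at -0.51 ± 0.11. The summed intensity of the 15 was 2117 to 2394 on preconditioned and 2045 to 2282 on sham arrays 1 to 5, and 2052 to 2345 against 2176 to 2334 in numbers 6 to 10. Both pairs of ranges overlap. In numbers 11 to 15, where Flt1 and Kdr were not called, 1 marker was higher (Vwf, 0.61 ± 0.13, adjusted p = 0.03) and the summed intensity was 2288 to 2697 on preconditioned and 2161 to 2344 on sham arrays. In numbers 16 to 20 none of the 15 was called, and the sums were 2070 to 2325 against 2145 to 2286. None of the 15, all of which had passed the filter on dim signal, was at the floor on any array.

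The receptor changes were then compared with the mean change of the endothelial markers by the same exact permutation tests. Flt1, taken by the brighter 1377113_at, exceeded the marker mean by 1.11 in numbers 1 to 5 (exact p = 0.00794, adjusted 0.0423) and by 0.85 in 6 to 10 (exact p = 0.0317, adjusted 0.113). Kdr exceeded it by 0.36 in numbers 1 to 5 (exact p = 0.0238, adjusted 0.0952) and by 0.58 in 6 to 10 (exact p = 0.00794, adjusted 0.0423). The Kdr excess in numbers 1 to 5 and the Flt1 excess in 6 to 10 thus missed the threshold. Against the 11 markers called in no run, which these same comparisons chose, the Kdr excess in numbers 1 to 5 passed (adjusted exact p = 0.0363). Flt1 rose by 0.76 more than Kdr in numbers 1 to 5 and by 0.27 more in 6 to 10, with adjusted exact p of 0.0727 and 0.615, so neither difference passed.

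No blood or mural cell marker was called in any run. The summed intensity of 3 red blood cell genes was 6034 to 9266 on preconditioned and 5208 to 6305 on sham arrays 1 to 5. It was 5442 to 8838 against 3812 to 5395 in numbers 6 to 10, which do not overlap. Their median log2 differences were 0.23 in both runs beside -0.03 and -0.02 for all probe sets, and none of the 3 was at the floor. The summed intensity of 8 mural cell markers was 797 to 903 against 882 to 1007 in numbers 1 to 5 and 719 to 899 against 841 to 1037 in numbers 6 to 10, overlapping in both runs. The part of these cells in the receptor result was not tested.

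The co-receptors showed no called difference between the groups. Nrp1 probe set 1373577_at read 420, 453, 421, 387 and 355 on preconditioned arrays 1 to 5 and 424, 428, 384, 404 and 404 on sham arrays, fully overlapping. The 95% intervals of its log2 difference were -0.17 to 0.15, -0.18 to 0.14, -0.25 to 0.07 and -0.11 to 0.21 in the 4 runs in order. Probe set 1370570_at gave -0.17 to 0.15, -0.13 to 0.19, -0.01 to 0.31 and -0.13 to 0.20. A change of the size seen for Kdr in numbers 6 to 10 lies outside all 8 intervals.

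Nrp2 was measured with less precision. Probe set 1382995_at read 197, 214, 163, 204 and 137 on preconditioned arrays 1 to 5 and 202, 178, 138, 173 and 206 on sham arrays, with wide overlap. Its 95% intervals were -0.25 to 0.29, -0.16 to 0.38, -0.16 to 0.38 and -0.19 to 0.35. The dim probe set 1369824_at, below the floor on 7 of 40 arrays, was not kept, and without the filter its differences ran from -0.26 to 0.26 with adjusted p of 0.669 or more. The changes of Nrp1 and Nrp2 did not pass a test against each other in any run (adjusted exact permutation p of 0.195 or more).

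**Figure D4:**
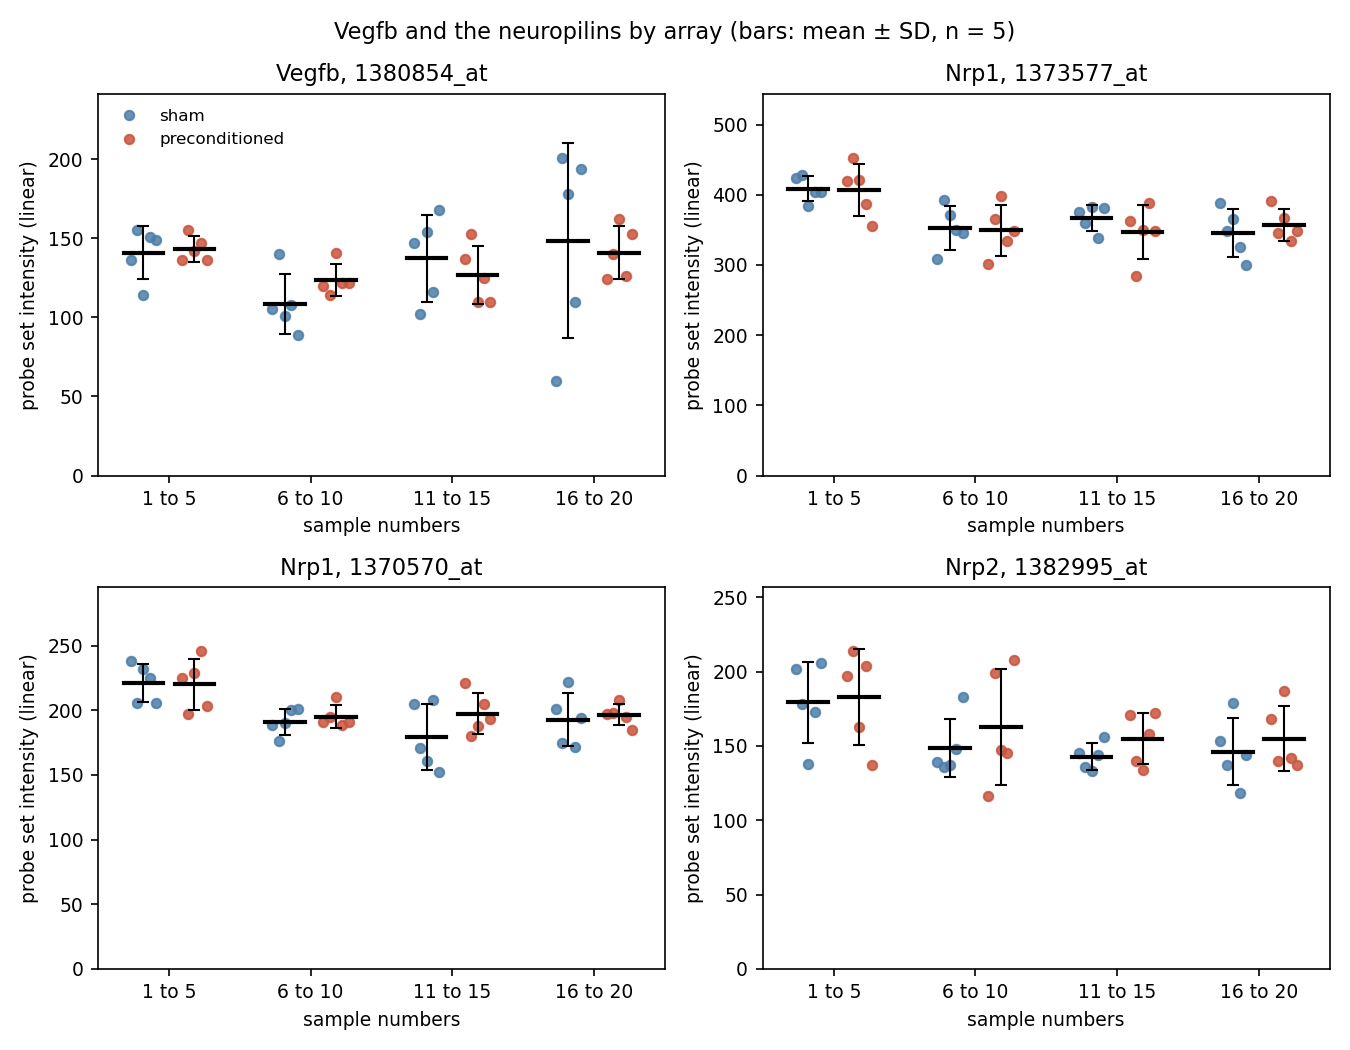
Intensity (vertical axes, linear, from 0) of Vegfb, both Nrp1 probe sets and Nrp2 on each array, by run of sample numbers (horizontal axes), with sham in blue and preconditioned in red; points are arrays and bars the mean ± SD of 5. Groups overlap in every run, and the sham mean of Nrp1 1373577_at is 409 in numbers 1 to 5 and 346 to 367 later.

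Sham levels differed across runs for Nrp1. Its probe set 1370570_at averaged 221 ± 15, 191 ± 9.98, 179 ± 25.5 and 193 ± 20.5 on sham arrays of the 4 runs. This was the 1 member probe set of 10 called by the limma F-test of sham level (adjusted p = 0.0339), against 13.7% of all probe sets, so the members' share is near the background. The call was lost under quantile normalization (0.0508), under median centring (0.0669), with sham arrays alone (0.0674) and in 6 of 40 fits that left out 1 array, namely sham 1, 3, 4, 12, 13 or 15 (up to 0.105, without sham array 1). The other Nrp1 probe set averaged 409 ± 17.6, 353 ± 31.4, 367 ± 18.5 and 346 ± 34.3, missed the F-test (adjusted p = 0.0857, but 0.0458 without sham array 16 and 0.0477 with sham arrays alone) and was lower in numbers 16 to 20 than in 1 to 5 by -0.25 ± 0.08 (adjusted p = 0.0292). In that last comparison 7.88% of all probe sets were called lower. For Vegfb the F-test gave an adjusted p of 0.363, and 0.014 without sham array 16.

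Probe sets of the same gene were compared within each array. Of 12 exact two-sided permutation tests over Vegfa, Flt1 and Nrp1 in the 4 runs, none passed after adjustment. With 5 arrays per group the smallest possible p, 0.00794, would not have passed for 1 of the 12 tests alone. The lowest p seen was 0.0397 (exact permutation, adjusted 0.334), for Vegfa in numbers 1 to 5, where 1370081_a_at rose by 0.20 less than 1373807_at on the log2 scale. For Flt1 in numbers 16 to 20 the difference was 0.60 (exact permutation p = 0.0556, adjusted 0.334), with 1 probe set above and the other below 0.

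Around these members, 61 genes of the pathway were followed in 6 lists, of which 39 had a kept probe set of their own. In numbers 1 to 5, 5 rose and 0 fell, beside 1.23% of all probe sets called higher and 1.15% called lower, with a median log2 difference of 0.08 against -0.03 for all. The next run, 6 to 10, had 3 that rose and 0 that fell, beside 1.1% and 1.12%, with a median of 0.04 against -0.02. In the later runs 0 of 39 were called. The lists were chosen with earlier results of these data known, so these counts are descriptions and not tests. The remaining ligands and receptor of the family, Pgf, Vegfd and Flt4, had no kept probe set.

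Among genes known to be induced by VEGF, 2 of 7 rose in each of the first 2 runs. Angpt2, an endothelial ligand that loosens vessels for sprouting, rose by 1.41 ± 0.18 in numbers 1 to 5 and 1.82 ± 0.18 in 6 to 10 (adjusted p = 1.8e-06 and 1.26e-08). The nuclear receptor Nr4a1 rose by 0.55 ± 0.13 in numbers 1 to 5 (adjusted p = 0.0176), and the endothelial transcription factor Ets1 by 0.37 ± 0.10 in numbers 6 to 10 (adjusted p = 0.0366). The calcineurin regulator Rcan1 and the Notch ligand Dll4 had differences of -0.03 and 0.11 in numbers 1 to 5 and -0.07 and -0.29 in 6 to 10, none called. None of the 20 measured signal transduction genes between receptor and nucleus was called in a run, with differences from -0.37 to 0.30 in numbers 1 to 5.

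Of 6 measured HIF factors and oxygen sensors, 2 rose in numbers 1 to 5 and 1 in numbers 6 to 10. The prolyl hydroxylases that mark HIF for destruction gave Egln1 at 0.37 ± 0.08 and Egln3 at 0.51 ± 0.10 in numbers 1 to 5 (adjusted p = 0.00569 and 0.00142), and Egln1 at 0.31 ± 0.08 in numbers 6 to 10 (adjusted p = 0.0293). Hif1a, the oxygen-regulated subunit, was at -0.02 in both runs, and Epas1, its paralog in endothelium, at 0.13 and 0.09, none called. Among 4 proteins that bind the Vegfa RNA, Zfp36, which promotes decay of such messages, rose by 1.11 ± 0.19 in numbers 1 to 5 (adjusted p = 0.000229). Zfp36 was at 0.34 in numbers 6 to 10 and not called. Elavl1, which stabilises such messages, was at -0.12 ± 0.35 in numbers 1 to 5.

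The genes whose pattern was most like each member were found by Pearson's r over the 40 arrays, as a description. For Vegfa these were Slc2a1, a glucose transporter of brain endothelium (r = 0.93), the plasminogen activator Plat (0.90) and the histone demethylase Kdm3a (0.89). After group means were removed, r fell to -0.09, 0.26 and 0.17, so the likeness lay between groups more than between arrays of a group. Slc2a1 differed by 1.46 ± 0.08 in numbers 1 to 5 and 0.98 ± 0.08 in 6 to 10. For Kdr they were Angpt2 (r = 0.87), Anxa2 (0.84) and the stress-induced kinase Sgk1 (0.83), with 0.37, 0.41 and 0.36 after removal of group means. For Flt1 1377113_at they were Bhlhe40, Ttyh2 and Ier2 (0.69, 0.69 and 0.67), with 0.395, 0.397 and 0.281 after removal of group means.

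The members that did not rise had other company. Vegfc was most like Cpox, an enzyme of haem synthesis, Cyyr1 and Tmem230 (r = 0.69, 0.68 and 0.68). After removal of group means these r were 0.512, 0.355 and 0.352. Cyyr1 was lower by -0.92 ± 0.20 in numbers 1 to 5 and -0.89 ± 0.20 in 6 to 10 (limma adjusted p = 0.00771 and 0.0114). Vegfb was most like Nacc2 (r = 0.64, and 0.67 after removal of group means). Nrp1 was most like the nucleolar protein gene Fbl (0.77 and 0.76), and Nrp2 most like Runx1t1 (0.69 and 0.64). Next for Vegfb were Ap3b2 (0.579 and 0.521) and Myh9 (0.565 and 0.554). For Nrp1 they were Vcan (0.759 and 0.690) and Hnrnpr (0.753 and 0.675). For Nrp2 they were Dlgap4 (0.658 and 0.590) and Srgap2 (0.647 and 0.488). For Vegfb, Nrp1 and Nrp2 most of the likeness therefore remained within groups, with a fall for most of these genes. Arrays share their scaling and hybridisation, so an r over arrays also carries what those add.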

How the data were processed

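Total RNA of 40 rat cerebral cortex samples was measured on 1-colour Affymetrix arrays. The deposited values are linear intensity values per probe set; which software made them is not given in the sources used here. Trimmed by 2% of its probe sets at either end, every array averaged 150.04 to 150.06, so the arrays had been scaled to a common mean before deposit, and no further normalization was applied. After 57 controls were removed, intensities under 16 were set to 16 and log2 was taken; 25.7% of values lay at the floor. Probe sets with a mean log2 at or above the 40th percentile (intensity 31.9) were kept, 18625 of 31042. A floor understates differences of dim probe sets. The number of arrays limits the precision.

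One limma 3.58.1 fit in R 4.3.3 (lmFit, eBayes with a mean trend) of 8 group means gave the contrasts by run, the steps between runs and F-tests of the interaction and of level across runs. A second fit compared the groups over all 40 arrays. All tests were two-sided, adjusted by Benjamini and Hochberg over all kept probe sets, threshold 0.05. Differences are preconditioned minus sham with the SE of the fit. The fit was tested on simulated data. Ratios of probe sets within an array were compared by exact permutation (252 splits, Python 3.11.15). Genes came from the platform annotation and were checked against RefSeq IDs of GRCr8. In ratios, lists and likeness a gene was represented by its brightest kept probe set.

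Named were all members, list genes by role, and the 3 genes most like each member by r. Members and lists were chosen with earlier results of these data known. Each result was recomputed after median centring or quantile normalization, with a pseudocount of 32 or a floor of 1, with the filter dropped or set at the 60th percentile, without the mean trend, with only the arrays compared, the sample number as a replicate block, the run as a covariate, and leaving out preconditioned arrays 5 and 6 or each array.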

Additional observations from a re-analysis of the deposited data

Results flagged for a closer look

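The effect of preconditioning differed between the 4 runs of sample numbers for 5 member probe sets, by the limma F-test of the interaction. The adjusted p was 1.02e-09 for Vegfa 1373807_at, 2.29e-05 for Vegfa 1370081_a_at, 0.00669 for Flt1 1370492_a_at, 0.028 for Flt1 1377113_at and 0.00946 for Kdr 1367948_a_at. In each, the preconditioned excess was called in numbers 1 to 5 and, except for Flt1 1377113_at, in numbers 6 to 10.

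In 3 of 80 groups of 5 arrays, 1 array stood far from the others by Dixon's ratio of gap to range, whose critical value is 0.71. The ratio was taken on log2 values, while the values given here are linear intensities. About 1 group in 20 does so by chance. Sham array 9 was lowest for Flt1 1370492_a_at (ratio 0.754), at 18.7 against 27 for the next. Sham array 14 was lowest for Flt1 1377113_at (0.738), at 36.4 against 52.9. Sham array 12 was lowest for Kdr (0.732), at 231 against 257.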

How the results depend on the processing

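Under every alternative that kept their probe sets, including each of the 40 fits without 1 array, the Vegfa and Flt1 1370492_a_at calls in numbers 1 to 5 and 6 to 10 held. The filter at the 60th percentile removed Vegfc and Flt1, which left 3 member probe sets called in numbers 1 to 5 and 3 for the interaction. The count for sham level was 0 under quantile normalization and under median centring, 2 without preconditioned arrays 5 and 6, and 0 to 3 when 1 array was left out, with 0 without sham array 1, 3, 4, 12, 13 or 15 and 3 without sham array 16. With the sample number as a replicate block, 1 member was called in numbers 11 to 15 (Vegfa 1373807_at, adjusted p = 0.0382), Kdr was called over all arrays (0.018) and Flt1 1377113_at in numbers 6 to 10 (0.0325). The numbers are not stated to pair samples. Of 20 pairs, 15 correlated over 0.1 in their deviations from group means (0.0312 to 0.393). Among the 5 arrays of the other group in the run, 19 preconditioned and 17 sham arrays of 20 correlated best with their own number. That is a hint from the data and not the design. The permutation tests did not use the numbers.

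Signs turned only for differences that were not called. Nrp1 1370570_at in numbers 1 to 5 became 0.017 (quantile normalization), 0.056 (median centring) and 0.017 (without preconditioned arrays 5 and 6). Nrp1 1373577_at became 0.057 and 0.038 in numbers 1 to 5, 0.057 and 0.036 in 6 to 10, and 0.022 and 0.001 over all arrays, under the last 2 of these settings. With the endothelial markers called in no run, which these same comparisons chose, Nrp1 against their mean became -0.010 in numbers 6 to 10 and Nrp2 became 0.054 in 11 to 15. Leaving out 1 array gave ranges across 0 in numbers 1 to 5 for Vegfb (-0.044 to 0.068), Nrp1 1370570_at (-0.052 to 0.027), Nrp1 1373577_at (-0.051 to 0.038) and Nrp2 (-0.067 to 0.124). It did so for Nrp1 1373577_at in 6 to 10 (-0.066 to 0.036), and in 11 to 15 for Flt1 1370492_a_at (-0.31 to 0.072) and 1377113_at (-0.194 to 0.105). In 16 to 20 the ranges were -0.022 to 0.119 for Vegfa 1370081_a_at, -0.242 to 0.196 for Vegfb and -0.008 to 0.085 for Nrp1 1370570_at, and over all arrays -0.012 to 0.08 for Vegfb and -0.033 to 0.002 for Nrp1 1373577_at. The cause was not tested.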
